A study of Mus musculus with 6 samples.

Results

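The genes described here are the hypoxia response and glycolysis genes of RW4 mouse embryonic stem cells, taken from a list of 35 genes in 4 roles: glycolytic enzymes, glucose entry genes, HIF targets outside glycolysis, and HIF regulators. A gene was found where the platform annotation of the array named it on any row, also on rows naming several genes, and its brightest usable row was kept. This gave 33 of the 35 genes among the 19938 genes tested, with 11 glycolytic enzymes, 3 glucose entry genes, 13 HIF targets and 6 regulators. Eno1 and Gpi1 were not analysed here. The study placed biotin-labelled total RNA of RW4 cells on 6 Affymetrix arrays, 2 per group. Untreated cells carried the induction system tag WT and no agent. Treated cells received 1 µM 4-hydroxytamoxifen (4OHT, tag ERT2) or 1 µM Shld1 (tag FKBP). Both agents are inducers of engineered fusion proteins: 4OHT binds a mutated estrogen receptor domain, and Shld1 stabilises a destabilised FKBP domain. All groups grew on gelatin in medium with serum and leukemia inhibitory factor. Whether the RW4 cells carried a fusion protein, how long they were treated, and whether the arrays of a group came from separate cultures are not stated in the labels. The p-values therefore rest on variation that may be partly or wholly technical. For each gene, limma estimates it from the arrays within groups together with the spread shared by all genes.

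Hypoxia-inducible factors (HIFs) are pairs of an oxygen-sensitive alpha subunit, encoded by Hif1a or Epas1, and the stable partner encoded by Arnt. In the presence of oxygen, prolyl hydroxylases of the Egln family mark the alpha subunit and the Vhl protein directs its degradation, so much of HIF control happens on the protein and not on the RNA. When oxygen is low, HIF binds short promoter and enhancer elements and raises glucose transporters, most glycolytic enzymes and genes for angiogenesis, mitophagy and collagen modification. Mouse embryonic stem cells in serum and leukemia inhibitory factor rely strongly on glycolysis also in ample oxygen. Oxygen, HIF protein and metabolic flux were not measured in the data used here.

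The cells carried the stem cell markers that the label implies. All 8 stem cell genes lay above background, with means over all arrays from 7.28 for Klf4 to 11.64 for Tdgf1 on the log2 scale, where background is the 95th percentile of 1015 olfactory receptor genes, 3.73. The median difference of these 8 genes was 0.00 with 4OHT and -0.08 with Shld1, each against untreated. All 6 primitive endoderm markers, 3 of 6 trophoblast markers and 4 of 7 fibroblast markers were above background, at means of at most 7.0, 6.79 and 5.78. Their median differences lay between 0.01 and 0.12 with either agent, and none of these marker genes had an unadjusted p under 0.05 (limma). The log2 values had an SD of 2.29 on 4OHT replicate 1 and 2.24 on Shld1 replicate 2, against 2.33 to 2.35 on the other 4 arrays. On these 2 arrays the genes above the median signal were lower than in untreated cells by a median of -0.10, which is given again beside the results it touches.

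With 4OHT, 31 of the 33 genes had a lower mean than in untreated cells, with a median log2 difference of -0.22 and a range from -0.88 (Bnip3) to 0.35 (Epas1). Of all genes tested, 52.2% had a difference below 0 and the median was -0.01. Among the 9969 genes above the median signal, 6458 were below 0 and the median was -0.06. None of the 33 passed limma's test at an adjusted p of 0.05, and neither did any other gene (0% of 19938 called, smallest adjusted p 0.96, 1000 genes at an unadjusted p under 0.05). At an unadjusted p under 0.05, 8 of the 33 were lower, where 2.43% of all genes were, and 1 was higher, where 2.58% of all genes were. Of the 9969 genes above the median signal, 323 were lower and 119 higher at this threshold (limma). Both 4OHT arrays lay below both untreated arrays for 22 of the 33 genes, a pattern shown by 20.4% of all genes, and above both for 2, a pattern shown by 17.3% of all genes. Of the 9969 genes above the median signal, 2842 showed the lower pattern and 1164 the higher one. Centring every array on its 75th percentile moved the share of all genes below 0 from 52.2% to 41.5% and left 29 of the 33 below 0, with a median of -0.17. Quantile normalization, which gives all arrays the same distribution of values, left 30 of the 33 below 0, with a median of -0.21.

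The size of the difference was carried mainly by 4OHT replicate 1. On this array the 33 genes lay at a median of -0.36 from the untreated mean, and on 4OHT replicate 2 at -0.10. Genes above the median signal lay at -0.10 on 4OHT replicate 1 and -0.01 on 4OHT replicate 2. Replicate 1 was the lower of the pair for 30 of the 33 genes. It was the lower for 10503 of all 19938 genes and for 6718 of the 9969 genes above the median signal. Without replicate 1, 26 of the 33 genes were below 0, with a median of -0.10. The median was -0.24 without untreated replicate 1, -0.19 without untreated replicate 2 and -0.36 without 4OHT replicate 2, against -0.22 with all arrays. A fit without 1 array leaves a group with a single array, so only the size is given. Between the 2 untreated arrays the median difference over the same genes was 0.05 in size. Since the RNA came from whole cultures, fewer cells of a type and less RNA per cell cannot be told apart.

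**Figure D1:**
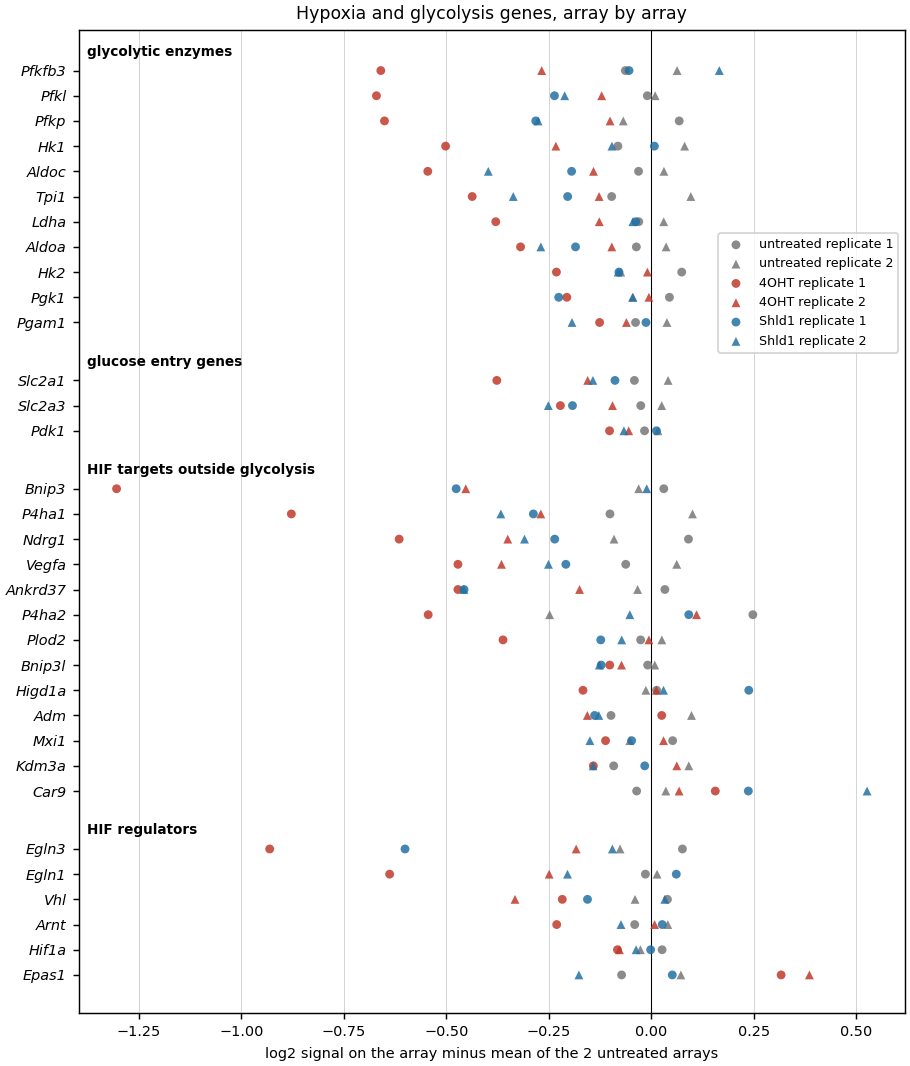
Log2 signal of each of the 33 genes on each of the 6 arrays, minus the mean of the 2 untreated arrays, grouped by role and marked by group (colour) and replicate (shape). Most points of treated arrays lie left of 0, 4OHT replicate 1 lies farthest left for most genes, and Epas1 with 4OHT and Car9 with Shld1 lie to the right.

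All 11 glycolytic enzymes had lower means with 4OHT, by a median of -0.28 and a range from -0.46 to -0.09, and all 11 stayed lower under quantile, cyclic loess and 75th percentile scaling. For 9 of the 11 both 4OHT arrays lay below both untreated arrays, as for 20.4% of all genes and 2842 of the 9969 genes above the median signal. At an unadjusted p under 0.05 (limma), 2 were lower, where 2.43% of all genes were. Pfkfb3 makes the metabolite that activates phosphofructokinase and so sets the pace of glycolysis. Its log2 signal was 4.84 and 4.96 on the untreated arrays, 4.24 and 4.63 with 4OHT, and 4.84 and 5.06 with Shld1. Both 4OHT arrays were thus the lowest of the 6, and the Shld1 arrays lay level with untreated cells or above them. The 4OHT difference was -0.46 (SE 0.17, 1.38-fold lower), with an unadjusted p of 0.0227 and an adjusted p of 0.96 (limma). Hk1, which traps glucose in the cell by phosphorylating it, gave 6.51 and 6.67 in untreated cells, 6.09 and 6.35 with 4OHT, and 6.60 and 6.49 with Shld1. As for Pfkfb3, only the 4OHT arrays stood below the untreated ones without overlap. Its 4OHT difference was -0.37 (SE 0.15), with an unadjusted p of 0.0394 and an adjusted p of 0.96 (limma).

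The Hk1 value rests on which row is read. The platform annotation named Hk1 on 18 rows, and 16 of these also named other genes, among them the ribosomal protein gene Rpl17. A single row, probe set 10369541, listed RefSeq transcripts of Hk1 itself, and that row was used. Over the other 17 rows the 4OHT difference ran from -0.04 to 0.16.

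Phosphofructokinase, the committing step of glycolysis, is encoded here by Pfkl and Pfkp. Pfkl gave 7.42 and 7.44 in untreated cells, 6.76 and 7.31 with 4OHT, and 7.19 and 7.22 with Shld1, so that both agents' arrays lay below both untreated arrays. Pfkp showed the same order, with 8.44 and 8.30, then 7.72 and 8.27, then 8.09 and 8.09. Aldoc, an aldolase, gave 6.76 and 6.82 in untreated cells, 6.24 and 6.65 with 4OHT, and 6.60 and 6.39 with Shld1. In Pfkl, Pfkp and Aldoc the lowest value belonged to 4OHT replicate 1, while 4OHT replicate 2 lay above both Shld1 arrays. The 4OHT differences were -0.40 for Pfkl, -0.38 for Pfkp and -0.34 for Aldoc, with SEs of 0.18, 0.19 and 0.17 and 95% intervals that included 0. The remaining enzymes differed less: Tpi1 by -0.28, Ldha, which makes lactate, by -0.25, Aldoa by -0.21, Hk2 by -0.12, Pgk1 by -0.11 and Pgam1 by -0.09. Pgk1 and Pgam1 have 3 rows each, of which 2 hold identical values, and the third gave -0.14 for Pgk1 and -0.18 for Pgam1. For all 11 enzymes the 95% interval of the 4OHT difference stayed within 2-fold, and for 5 within 1.5-fold.

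The 3 glucose entry genes lay close to the enzymes in direction and lower in size. Slc2a1, the main glucose transporter of growing cells, differed by -0.27 (SE 0.15) with 4OHT, and Slc2a3, a high-affinity transporter, by -0.16 (SE 0.14). Pdk1, a kinase that keeps pyruvate out of the mitochondrial cycle, differed by -0.08 (SE 0.14). None of the 3 had an unadjusted p under 0.05, although the 4OHT arrays lay below both untreated arrays in each, as in 20.4% of all genes.

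Of the 13 HIF targets outside glycolysis, 12 had lower means with 4OHT, where 52.2% of all genes did, by a median of -0.18. Under quantile or cyclic loess scaling 11 were lower, and 10 after centring on the 75th percentile. At an unadjusted p under 0.05 (limma), 4 were lower, where 2.43% of all genes were. The median hides a split, since Bnip3, P4ha1, Ndrg1, Vegfa and Ankrd37 differed by -0.88 to -0.32 and the other 8 by -0.22 to 0.11. HIF recognises a short core, ACGTG or GCGTG, and the 250 bases before the start of a gene were searched for it on both strands in RefSeq promoters of build GRCm38.p6. A promoter was found for 28 of the 33 genes, and 26 of the 28 (92.9%) held a core, against 41.5% of 27025 genes with a promoter. A gene with several RefSeq starts counted if any of its windows held a core. Counted by window, the share was 77.5% of 40 for the 28 genes and 38.6% of 32851 over all genes. The promoters of Tpi1 and Vhl did not hold these letters in that window. The 28 genes' windows had a median GC content of 62.4%, against 52.4% over all windows, and a median of 14 CG pairs, against 6; the part of base composition in the share of matches was not tested. The longer match CACGTG, which counts as ACGTG on both strands, was present in 4 of the 28 (14.3%) and in 6.86% of all genes. Promoters of 3 genes are printed because they held a core and had the smallest unadjusted p-values of the 28 in any of the 3 comparisons. These are the promoters of Bnip3 (lower with 4OHT than untreated), Pfkfb3 (lower with 4OHT than Shld1) and Ankrd37 (lower with Shld1 than untreated). Each runs 5′ to 3′ along the minus strand, the strand of the gene, and ends at the base before the start, with the core on either strand in capitals. They lie at chr7:138909507-138909756 (Bnip3), chr2:11502091-11502340 (Pfkfb3, the one of 2 RefSeq starts with most matches) and chr8:45999851-46000100 (Ankrd37).
Bnip3: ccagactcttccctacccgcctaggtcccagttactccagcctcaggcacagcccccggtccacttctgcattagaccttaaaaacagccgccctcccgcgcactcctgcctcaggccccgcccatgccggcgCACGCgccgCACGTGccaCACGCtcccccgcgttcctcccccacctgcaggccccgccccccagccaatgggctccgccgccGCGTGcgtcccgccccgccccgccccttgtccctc
Pfkfb3: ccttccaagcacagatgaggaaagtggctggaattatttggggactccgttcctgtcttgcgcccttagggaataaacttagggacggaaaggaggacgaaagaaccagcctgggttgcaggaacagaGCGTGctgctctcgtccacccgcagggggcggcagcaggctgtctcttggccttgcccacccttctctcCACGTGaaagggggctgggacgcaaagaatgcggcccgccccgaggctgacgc
Ankrd37: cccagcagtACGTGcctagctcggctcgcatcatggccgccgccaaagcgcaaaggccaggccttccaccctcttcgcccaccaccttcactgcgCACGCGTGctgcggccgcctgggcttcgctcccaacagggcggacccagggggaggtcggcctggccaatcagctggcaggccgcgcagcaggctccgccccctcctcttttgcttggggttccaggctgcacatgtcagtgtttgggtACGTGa
The Bnip3 window held 5 matches, at 117 to 35 bases before the start, 2 of them from its single CACGTG. The Pfkfb3 window held 3 matches, including a CACGTG, and the Ankrd37 window held 4, the nearest 6 bases before the start. A match describes the letters and says nothing of binding in these cells.

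Bnip3, a mitophagy receptor of the mitochondrial outer membrane and the first promoter above, had the largest difference of the 33. It gave 8.86 and 8.80 in untreated cells, 7.53 and 8.38 with 4OHT, and 8.36 and 8.82 with Shld1. Both 4OHT arrays lay below both untreated ones, but they were the widest pair of any group for this gene, and 1 of the 2 Shld1 arrays was as low as the higher 4OHT array. The 4OHT difference was -0.88 (SE 0.26, 95% interval -1.46 to -0.30), 1.84-fold lower, with an unadjusted p of 0.00698 and an adjusted p of 0.96 (limma). A second Bnip3 row gave -0.91. Without 4OHT replicate 1 the difference was -0.45 and without 4OHT replicate 2 it was -1.30. Its relative Bnip3l, also a mitophagy receptor, differed by -0.09 (SE 0.14).

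P4ha1, a subunit of the enzyme that hydroxylates collagen prolines, gave 6.14 and 6.34 untreated, 5.37 and 5.97 with 4OHT, and 5.96 and 5.88 with Shld1. All 4 treated arrays thus lay below both untreated arrays, and 4OHT replicate 2 was level with Shld1. Its 4OHT difference was -0.57 (SE 0.20), with an unadjusted p of 0.0167. Ndrg1, a stress-responsive gene, read 5.66 and 5.48 untreated, 4.95 and 5.22 with 4OHT and 5.33 and 5.26 with Shld1, so that both 4OHT arrays lay below both Shld1 arrays and these below untreated cells. Its 4OHT difference was -0.48 (SE 0.15), with an unadjusted p of 0.0110. Vegfa encodes the growth factor that drives vessel formation. It read 7.44 and 7.56 untreated, 7.03 and 7.14 with 4OHT, and 7.29 and 7.25 with Shld1, so the groups formed 3 separate steps with 4OHT lowest. Its 4OHT difference was -0.42 (SE 0.14), with an unadjusted p of 0.0141; the adjusted p of these 3 genes was 0.96 (limma).

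Ankrd37, a small ankyrin repeat protein, gave 5.89 and 5.82 untreated, 5.38 and 5.68 with 4OHT, and 5.40 on both Shld1 arrays. Here Shld1 was the group with the larger difference and the tighter pair. The 4OHT difference was -0.32 (SE 0.15). The other targets differed little with 4OHT: P4ha2 by -0.22, Plod2, which hydroxylates collagen lysines, by -0.18, Higd1a by -0.08 on the row used, Mxi1, an antagonist of Myc, by -0.04, and Kdm3a, a histone demethylase, by -0.04. A second, dimmer Higd1a row gave -0.36 with 4OHT, which would place it among the larger differences. The untreated arrays of P4ha2 alone read 5.60 and 5.10. Adm and Car9, textbook HIF targets, had means below background over all arrays (3.08 and 3.29). Car9, a carbonic anhydrase, read 3.09 and 3.16 untreated, 3.28 and 3.20 with 4OHT, and 3.37 and 3.65 with Shld1. It was therefore the only target with a higher mean under 4OHT, by 0.11 (SE 0.15), and stayed below the background level in all groups.

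**Figure D2:**
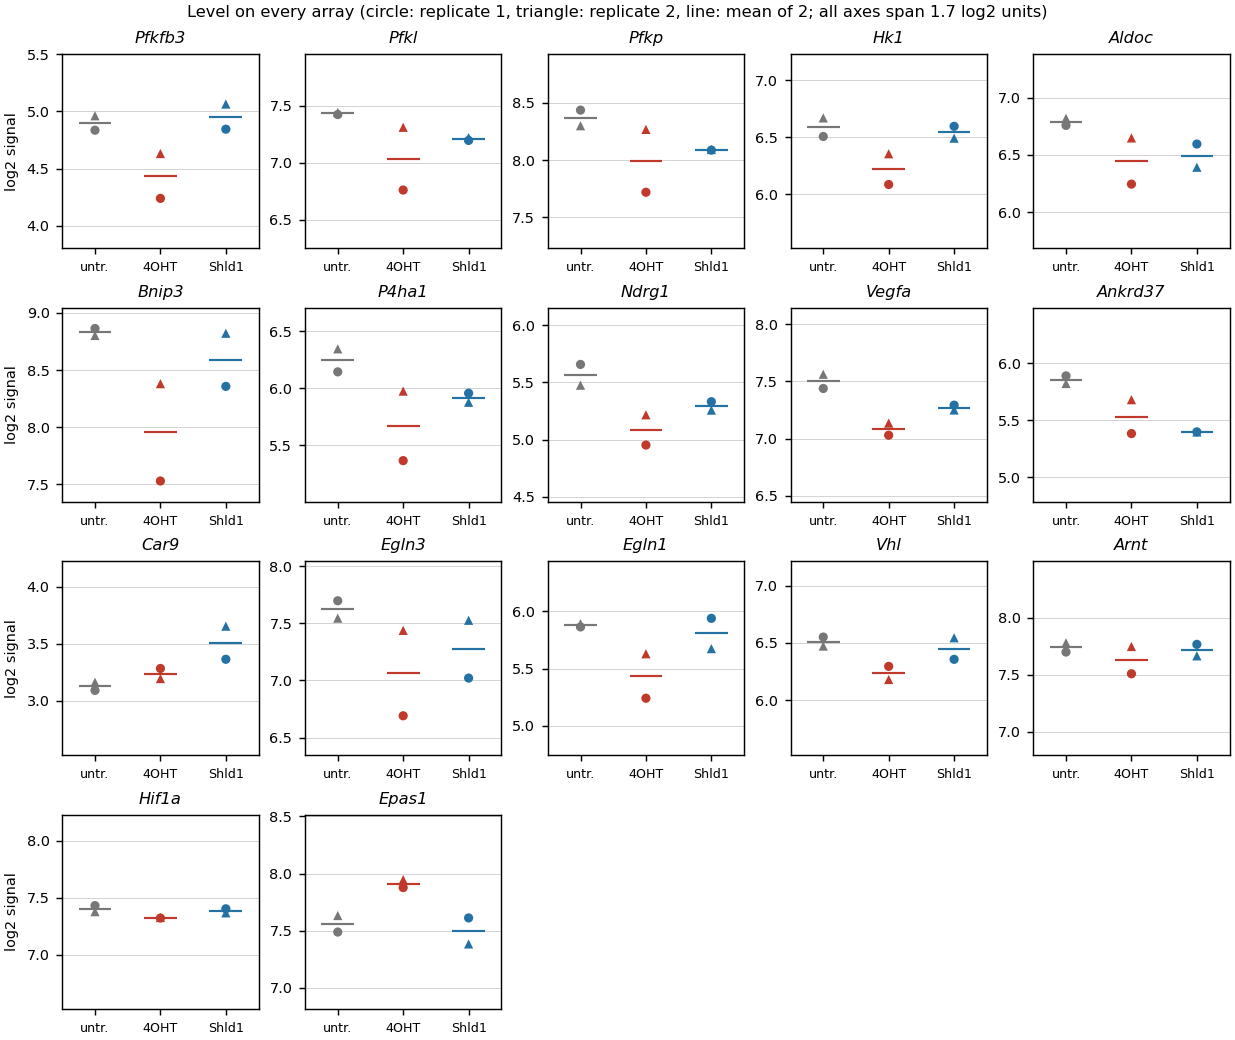
Log2 signal on every array for the 17 of the 33 genes whose values are given array by array, in untreated, 4OHT and Shld1 cells; circles are replicate 1, triangles replicate 2 and lines the mean of both, and the axes of all panels have the same span. Bnip3 with 4OHT has the widest pair (7.53 and 8.38), and Epas1 is the gene with both 4OHT arrays above all others (7.88 and 7.95).

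The 6 regulators differed in direction with 4OHT. Epas1, the alpha subunit HIF-2α, was higher with 4OHT: it read 7.49 and 7.63 untreated, 7.88 and 7.95 with 4OHT, and 7.61 and 7.38 with Shld1. Both 4OHT arrays were the highest of the 6 and close together, while the Shld1 and untreated arrays overlapped. The difference from untreated was 0.35 (SE 0.15), 1.28-fold higher, with an unadjusted p of 0.0407 and an adjusted p of 0.96 (limma). Hif1a, the other alpha subunit, read 7.43 and 7.38 untreated, 7.32 and 7.33 with 4OHT, and 7.40 and 7.37 with Shld1. The 4OHT arrays lay just below the untreated ones, by -0.08 (SE 0.14, 95% interval -0.38 to 0.22). Arnt overlapped in all groups, with 7.70 and 7.78 untreated, 7.51 and 7.75 with 4OHT, and 7.77 and 7.67 with Shld1.

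Egln3, Egln1 and Vhl, which act to limit HIF in the presence of oxygen, had lower means with 4OHT, whereas Egln2 (0.01) and Hif1an (0.19), hydroxylases with a related role outside the list of 35, did not. Egln3, a prolyl hydroxylase that is itself raised by HIF, read 7.70 and 7.55 untreated, 6.69 and 7.44 with 4OHT, and 7.02 and 7.53 with Shld1. Replicate 1 of either agent was the low array of its pair. The 4OHT difference of Egln3 was -0.56 (SE 0.25), with an unadjusted p of 0.0486. Egln1, the main oxygen-sensing hydroxylase, read 5.86 and 5.89 untreated, 5.24 and 5.63 with 4OHT, and 5.94 and 5.67 with Shld1. Its 4OHT arrays were the 2 lowest of the 6, with a difference of -0.44 (SE 0.17) and an unadjusted p of 0.0281; for both genes the adjusted p was 0.96 (limma). Vhl gave 6.55 and 6.47 untreated, 6.29 and 6.18 with 4OHT, and 6.36 and 6.545 with Shld1. The 4OHT arrays of Vhl were again the 2 lowest, by -0.27 (SE 0.15), with a 95% interval that included 0.

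With Shld1 the 2 arrays gave similar medians, and these were close to that of 4OHT replicate 2 (-0.10). Of the 33 genes, 29 had lower means than in untreated cells, where 51.1% of all genes did (42.7% after centring on the 75th percentile, with 26 of the 33). So did 6140 of the 9969 genes above the median signal. The median of the 33 was -0.10, against -0.00 for all genes and -0.04 for genes above the median signal. Medians over the 33 genes were -0.12 on Shld1 replicate 1 and -0.13 on replicate 2. The arrays did not overlap for 18 genes that were lower (17.3% of all genes) and 2 that were higher (15.2% of all genes). Of the 9969 genes above the median signal, 2233 were lower and 1128 higher without overlap. No gene passed the adjusted threshold (0% called by limma, 863 genes at an unadjusted p under 0.05). At an unadjusted p under 0.05, 1 of the 33 was lower (1.94% of all genes) and 1 higher (2.39% of all genes). The median was -0.13 without untreated replicate 1, -0.12 without untreated replicate 2, -0.13 without Shld1 replicate 1 and -0.12 without Shld1 replicate 2. Quantile normalization gave a median of -0.06 with 25 of the 33 below 0. The untreated arrays are shared with the 4OHT comparison, so both comparisons carry whatever those arrays hold.

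Ankrd37 was the lower gene, with a Shld1 difference of -0.46 (SE 0.15, 1.37-fold lower) and an unadjusted p of 0.0134, and Car9 the higher one, by 0.38 (SE 0.15) at an unadjusted p of 0.0317; both had an adjusted p of 0.999 (limma). Among glycolytic enzymes 10 of 11 were lower, by a median of -0.14 (9 of 11 under quantile or cyclic loess scaling, with medians of -0.079 and -0.0907), led by Aldoc (-0.30), Pfkp (-0.28), Tpi1 (-0.27), Aldoa (-0.23) and Pfkl (-0.22), and Pfkfb3 was the exception at 0.06. Slc2a3 differed by -0.22 and Slc2a1 by -0.12. Among the other HIF targets P4ha1 (-0.33), Ndrg1 (-0.27), Bnip3 (-0.24) and Vegfa (-0.23) were lower, and Higd1a was at 0.13. The Higd1a value is uncertain, because its dimmer row gave -0.26 for Shld1. Regulators stayed within -0.35 (Egln3) and -0.02 (Hif1a), with 95% intervals that included 0 for all 6; under quantile, cyclic loess and 75th percentile scaling 4 of the 6 were below 0. For 33 of 33 genes the interval of the Shld1 difference lay within 2-fold, and for 23 within 1.5-fold.

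**Figure D3:**
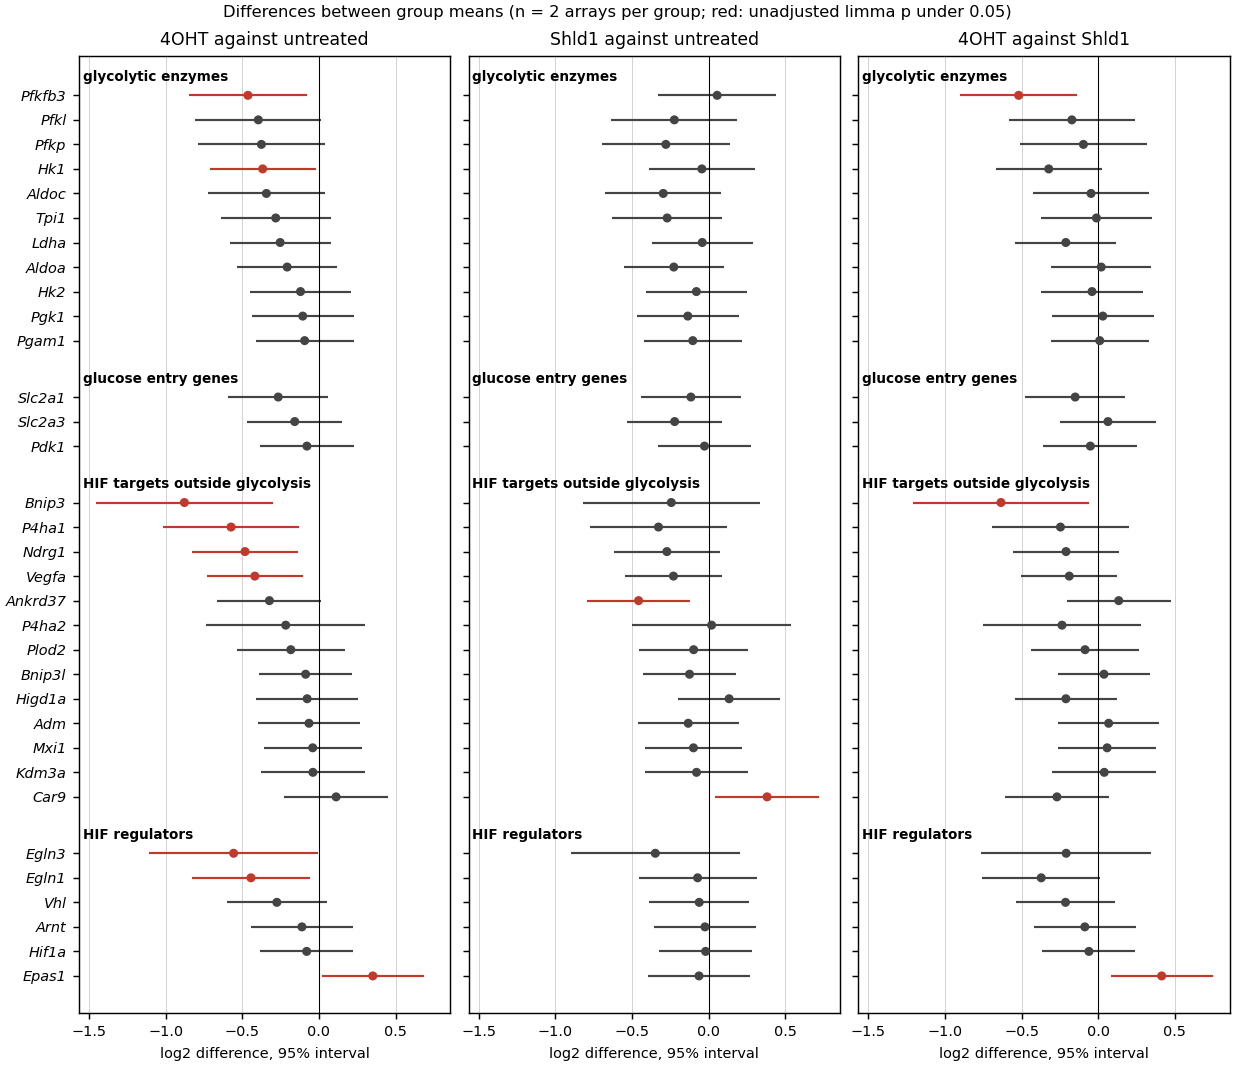
Differences between group means on the log2 scale for the 33 genes, with 95% intervals from limma, in the 3 comparisons; red marks an unadjusted p under 0.05. Intervals of 9 genes exclude 0 with 4OHT, of 2 with Shld1, and of 3 between the agents.

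The agents, both at 1 µM, were then set against each other directly. The means of 23 of the 33 genes were lower with 4OHT than with Shld1 (50.9% of all genes; 48.5% after centring on the 75th percentile), with a median of -0.09. At an unadjusted p under 0.05, 2 were lower (3.09% of all genes) and 1 higher (2.49% of all genes), and the arrays did not overlap for 11 lower genes (15.6% of all genes) and 2 higher ones (14.9% of all genes). No gene had an adjusted p under 0.05 (0% called by limma, 1113 at an unadjusted p under 0.05); the smallest adjusted p of the 33 was 0.874. Pfkfb3 was lower with 4OHT than with Shld1 by -0.52 (SE 0.17, unadjusted p 0.0131) and Bnip3 by -0.63 (SE 0.26, unadjusted p 0.0343). Epas1 was higher with 4OHT by 0.41 (SE 0.15, unadjusted p 0.0200). Without 4OHT replicate 1, 14 of the 33 genes were below 0 and the median turned to 0.05. The median was -0.10 without Shld1 replicate 1, -0.09 without Shld1 replicate 2 and -0.23 without 4OHT replicate 2. For Hif1a the difference between agents was -0.06 with an interval of -0.36 to 0.24, and for Slc2a1 -0.15 with -0.48 to 0.18. The interval lay within 1.5-fold for 24 of the 33 genes and within 2-fold for 32, so larger differences between the agents lay outside the interval for most genes, while smaller ones could not be told from the spread.

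Set out by role and array, glycolytic enzymes and HIF targets followed a similar order. The enzymes lay at medians of -0.44 and -0.12 on the 4OHT arrays and -0.18 and -0.19 on the Shld1 arrays. HIF targets outside glycolysis lay at -0.36 and -0.07 on the 4OHT arrays and -0.12 and -0.13 on the Shld1 arrays. Glucose entry genes lay at -0.22, -0.09, -0.09 and -0.14 in the same order of arrays, and regulators at -0.22, -0.13, 0.01 and -0.08. The regulators were therefore the one role with an array above the untreated mean, and it was Shld1 replicate 1. For genes above the median signal the 4 medians were -0.10, -0.01, 0.02 and -0.10. This order differs from that of the enzymes and the targets, which were equally low on both Shld1 arrays. Further pathway genes, described below, were lower on Shld1 replicate 2 than on Shld1 replicate 1. In the same order of arrays, 18 HIF targets lay at -0.30, -0.08, -0.08 and -0.20. The 16 genes of glucose metabolism lay at -0.16, -0.05, -0.05 and -0.17, and 11 genes of HIF control at 0.02, 0.09, 0.08 and -0.11. The part of the narrower signal range in the values of 4OHT replicate 1 and Shld1 replicate 2 was not tested. The differences between roles were not tested.

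**Figure D4:**
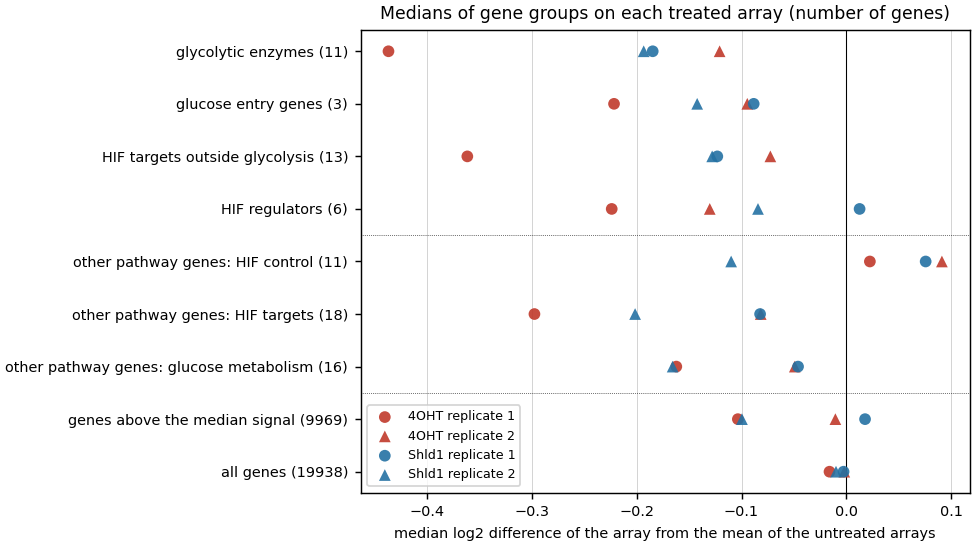
Median log2 difference of each gene group from the mean of the untreated arrays, on each of the 4 treated arrays, with all genes and genes above the median signal below. Glycolytic enzymes (-0.44) and HIF targets (-0.36) lie farthest left on 4OHT replicate 1, and all genes lie near 0.

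The array holding the highest or lowest value of each gene was counted as well. An untreated array was the highest of the 6 for 28 of the 33 genes (84.8%), against 28% of all genes and 34.7% of genes above the median signal. Both untreated arrays ranked above all 4 treated ones for 14 of the 33 (42.4%), against 6.96% of all genes and 10% of genes above the median signal. Among the 14 were 6 of the 11 glycolytic enzymes and 2 of the 3 glucose entry genes. The lowest value belonged to 4OHT replicate 1 for 23 of the 33 genes (69.7%), against 22.4% of all genes and 33.6% of genes above the median signal.

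Further genes of the pathway, 45 in number and not among the 33, were read from the same fit. Their lists too were chosen with earlier results of these data known. Of 18 additional HIF targets, 15 were lower with 4OHT, where 52.2% of all genes were. The median of the 18 was -0.22, with -0.30 on 4OHT replicate 1 and -0.08 on 4OHT replicate 2. Of the 18, 5 were lower at an unadjusted p under 0.05 (limma), where 2.43% of all genes were. Stc2, a secreted glycoprotein, had the smallest p of these and close replicates, with 6.48 and 6.51 untreated, 5.89 and 5.73 with 4OHT, and 6.08 and 6.02 with Shld1. All treated arrays of Stc2 lay below untreated, and those with 4OHT were lowest. Its difference was -0.68 (SE 0.14, unadjusted p 0.000721) with 4OHT and -0.45 (unadjusted p 0.0101) with Shld1. Fam162a, a mitochondrial protein linked to cell death in hypoxia, differed by -0.65 (unadjusted p 0.00291) with 4OHT. Ddit4, an inhibitor of mTOR signalling, read 7.59 and 7.55 untreated, 6.98 and 7.10 with 4OHT, and 7.54 and 7.51 with Shld1. In Ddit4 the Shld1 arrays thus stayed near untreated cells while both 4OHT arrays were low, by -0.53 (SE 0.14, unadjusted p 0.00342). Ndufa4l2, a mitochondrial protein, differed by -0.70 (unadjusted p 0.0178) and Ero1a, an oxidase of protein folding, by -0.40 (unadjusted p 0.0327). The adjusted p of these 5 genes was 0.96 with 4OHT (limma).

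The 16 further genes of glucose metabolism had a 4OHT median of -0.11, with 14 lower (52.2% of all genes). None had an unadjusted p under 0.05 (limma), where 2.43% of all genes were lower and 2.58% higher. Pkm, the pyruvate kinase of growing cells, differed by -0.22 and Ldhb by -0.20. The 11 further genes of HIF control had a median of 0.03, with 2 lower, and Cited2, which competes with HIF for its coactivator, was higher by 0.45 (SE 0.16, unadjusted p 0.0180, adjusted p 0.96, limma). With Shld1 the medians of these 3 lists were -0.17 for HIF targets, -0.04 for glucose metabolism and 0.01 for HIF control. Between the agents, Ddit4 was lower with 4OHT by -0.49 (unadjusted p 0.00579) and Fam162a by -0.37 (unadjusted p 0.0499).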

How the data were processed

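RNA of 6 samples was measured on Affymetrix arrays. The deposited table gives 35556 probe sets a log2 value on each array, a scale read from the values. The background correction, summarization and normalization by the authors are not given in the sources used here; per the submitters' processing notes limma 3.14 was used, with no role stated. These log2 values entered the fit as deposited. Array medians ran from 4.20 to 4.32.

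Of the probe sets, 21789 had 1 gene symbol, 1621 several and 12146 none in the platform annotation, and 21698 of the first were matched to RefSeq by Entrez identifier. Rows with several symbols could stand for a listed gene only. A gene with several rows took the brightest that listed one of its RefSeq transcripts, otherwise the brightest. This preference, added after seeing the Hk1 rows, changed the row of 53 genes, of which Hk1 is in the list. Levels were not compared between genes. Sequences are from RefSeq, build GRCm38.p6. The promoter rule allowed 4, and 3 are printed because the next, of Vegfa, had its matches in a window inside the gene. Windows were not screened for this as a rule, and Pfkfb3, like Vegfa, has 2 RefSeq starts. Bnip3l, Plod2, Ndrg1, Slc2a3 and Epas1 had no entry in the promoter table.

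limma 3.58.1 in R 4.3.3 fitted a mean per group over all 6 arrays, with two-sided moderated tests adjusted by Benjamini-Hochberg over 19938 genes and an adjusted threshold of 0.05. With 3 residual degrees of freedom and a prior of 6.77, a difference had a median SE of 0.160, and its 95% interval reached 0.357 to either side at the median. An exact permutation test of 2 against 2 arrays cannot go below 0.333 and was not used. The steps were tested on simulated data. The members and lists were chosen with earlier results of these data known. Genes are given array by array at an unadjusted p under 0.05 in any comparison, at a difference of at least 0.3 without overlap, and for Hif1a, Epas1, Arnt and Vhl. The background level was computed from olfactory receptor genes and filtered nothing.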

Additional observations from a re-analysis of the deposited data

How the results depend on the processing

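Groups of 2 arrays limit every value, and 4OHT replicate 1 carries much of the 4OHT difference. Of 140 values per comparison, 125 (4OHT against untreated), 137 (Shld1 against untreated) and 130 (4OHT against Shld1) counted as unchanged under 20 alternatives. For a median this means a move smaller than the spread between arrays of a group. That spread was 0.102 for all 33 genes, 0.141 for glycolytic enzymes, 0.0499 for glucose entry genes, 0.0904 for HIF targets and 0.0622 for regulators. The enzyme medians of -0.14 with Shld1 and -0.05 between the agents were smaller in size than their spread. Such a median could vanish or change sign and still count as unchanged. For the counts of all genes and of the 33 called, which were 0 in each comparison, it means that they stayed at 0. Of the values of single genes, 179 of 180, 39 of 39 and 59 of 60 kept their sign and their call. None of these genes was called as reported, so this tally says little of the size of a difference. Leaving out 1 array in turn, the 4OHT against untreated median ran from -0.36 to -0.10 over all 33 genes, -0.44 to -0.12 for glycolytic enzymes, -0.22 to -0.0945 for glucose entry genes, -0.36 to -0.0725 for HIF targets and -0.22 to -0.13 for regulators. The Shld1 against untreated median of regulators ran from -0.0843 to 0.0126. The 4OHT against Shld1 median ran from -0.23 to 0.0519 over all 33 genes, -0.25 to 0.10 for enzymes, -0.24 to 0.0519 for HIF targets and -0.18 to -0.0133 for regulators, and that of Bnip3 reached -1.06 without 4OHT replicate 2. Leaving out 4OHT replicate 1 and Shld1 replicate 2 together gave 4OHT against untreated medians of -0.10, -0.12, -0.0945, -0.0725 and -0.13 in the same order, a Shld1 median of 0.0126 for regulators, and 4OHT against Shld1 medians of 0.0189 over all 33 genes, 0.0189 for HIF targets and -0.0473 for regulators; Bnip3 turned to 0.0234 between the agents. Cyclic loess normalization gave -0.13 for regulators with 4OHT, and quantile normalization -0.0571 for glucose entry genes with Shld1; the cause was not tested. Reading Hk1 from the brightest row with 1 symbol, which lists no Hk1 transcript, turned its 4OHT difference to 0.16. With an intensity trend in limma, 1 gene, none of the 33, passed between the agents (adjusted p 0.0305). The number of the 33 with an unadjusted p under 0.05 (limma) in 4OHT against untreated was 9 as reported. It was 16 with an intensity trend, 13 with array weights and 5 when every probe set was tested. Over the alternatives that keep all 6 arrays it lay between 1 and 3 for Shld1 against untreated, against 2. For 4OHT against Shld1 it lay between 2 and 6, against 3. The counts over all genes under these alternatives are not given here, so the changes cannot be read as particular to the 33. The labels' replicate numbers are not said to pair arrays, and the replicate differences of the groups correlated at 0.05, -0.08 and -0.19 over 19938 genes. With the replicate number as a block (replicate block), 0 of the 33 were called, and 7, 2 and 3 had an unadjusted p under 0.05 in the 3 comparisons, against 9, 2 and 3.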
